A study of Mus musculus with 12 samples.

Results

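The nuclear genes of respiratory complex III (ubiquinol-cytochrome c reductase), complex IV (cytochrome c oxidase) and ATP synthase were examined in mouse CD8+ T cells. Members were the genes of the deposited count table whose symbol begins with Uqcr, Uqcc, Cox4, Cox5, Cox6, Cox7, Cox8 or Atp5. Of 46 such genes, 3 named as pseudogenes were set aside, which left 43 of the 13780 genes in the table. They comprise 11 genes of complex III (8 subunits and the assembly factors Uqcc1, Uqcc2 and Uqcc3), 15 of complex IV (14 subunits and Cox7a2l, which links complexes III and IV) and 17 of ATP synthase. All 43 passed the filter on low counts, so no member was left out of a test. The mitochondrially encoded subunits and Cox8b were not analysed here.

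RNA was sequenced from CD8+ T cells of the spleen of young adult C57BL/6J mice, purified by positive selection on magnetic beads, in 4 libraries for each of 3 groups. The naïve group held cells that were not activated. The media group held cells activated for 72 h with beads coated with anti-CD3 and anti-CD28 antibodies and with 10 U/ml IL-2, in plain medium. The lactate group was activated in the same way with 40 mM sodium lactate, so that lactate, the added sodium and the higher osmolality cannot be told apart in these libraries. Taking the donor numbers in the labels to restart in the later run of library numbers, the activated cells came from 5 donors, and 3 of these donors are in the media group as well as in the lactate group. Per the study, each condition had 4 independent mouse donors, though the labels do not tie the naïve libraries to donors. The depth was 16439750 to 18601223 counts in naïve libraries, 15842423 to 20922872 in media and 14726904 to 21478137 in lactate. Levels are given as CPM, the count of a gene scaled to the size of its library, with TMM scaling between libraries. TPM values are divided by the summed exon length in the deposited table and are used where single genes are compared with each other. Sums over a complex or over all members are of CPM.

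Complex III takes electrons from ubiquinol and passes them to cytochrome c, complex IV passes them from cytochrome c to oxygen, and both pump protons out of the mitochondrial matrix. ATP synthase lets the protons flow back through a rotating ring in the membrane and couples this to ATP production in its F1 head. Most subunits of these complexes are encoded in the nucleus, and resting T cells that become activated are known to enlarge their mitochondria and to raise both glycolysis and respiration. A few subunits exist as alternative isoforms that are best known from heart, skeletal muscle, lung or testis.

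Since many genes of the respiratory chain are known to carry sites for the factors NRF1, GABP of the ETS family and YY1 near their start, the promoters of the members were read from RefSeq (GRCm38.p6). An entry was found for 34 of the 43 members, but not for Cox4i1, Cox4i2, Cox6a2, Cox6c, Uqcrb, Uqcrc2, Uqcrq, Atp5a1 and Atp5mpl. Windows of 300 bases, from 250 bases before the start to 50 after it, were searched on both strands for the palindrome-like NRF1 motif of 10 bases (NRF1-type, in the form that the capitals show), CCGGAAG (ETS-type) and AAGATGGC (YY1-type). The ETS-type and YY1-type letters may share 3 bases where they adjoin. The NRF1-type letters were in the windows of 9 of the 34 members (26.5%), beside 11.6% of the 9898 tested genes with an entry and 4.60% of all 32851 windows. The ETS-type letters were in those of 11 members (32.4%), beside 20.5% of tested genes and 8.86% of windows. The YY1-type letters were in those of 4 members (11.8%), beside 5.33% of tested genes and 2.75% of windows. These are matches of letters only. The stretches upstream of 4 members are shown here from 5′ to 3′ on the strand of the gene, without bases that GENCODE places inside the gene. They show Cox6a1, with a pair of NRF1-type matches at positions -162 and -117 from the start, Uqcc2, with 1 at -48, Uqcr11, with an ETS-type match at -66, and Cox7a1, which had none in its window. The matches are in capitals. Cox6a1 also had an ETS-type match at -16 and Uqcc2 a YY1-type match at 12, which lie inside the gene and are not shown.
Cox6a1 (chr5:115348982-115349208, minus strand, overlapping an exon of the lincRNA gene Gm42903): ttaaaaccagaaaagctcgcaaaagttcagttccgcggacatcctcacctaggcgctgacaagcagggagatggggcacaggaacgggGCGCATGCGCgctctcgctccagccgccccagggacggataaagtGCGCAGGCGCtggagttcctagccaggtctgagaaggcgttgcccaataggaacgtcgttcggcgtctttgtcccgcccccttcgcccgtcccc
Uqcc2 (chr17:27133917-27134141, minus strand, outside annotated genes): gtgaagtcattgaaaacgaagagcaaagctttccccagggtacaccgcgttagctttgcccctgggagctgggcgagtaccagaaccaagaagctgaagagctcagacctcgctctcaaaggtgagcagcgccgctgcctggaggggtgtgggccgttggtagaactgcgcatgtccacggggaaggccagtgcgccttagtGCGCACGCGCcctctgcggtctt
Uqcr11 (chr10:80406831-80407071, minus strand, outside annotated genes): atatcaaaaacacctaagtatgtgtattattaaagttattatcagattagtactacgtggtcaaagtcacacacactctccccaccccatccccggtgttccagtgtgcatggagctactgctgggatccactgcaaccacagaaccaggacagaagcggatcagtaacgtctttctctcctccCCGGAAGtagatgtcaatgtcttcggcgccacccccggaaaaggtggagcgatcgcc
Cox7a1 (chr7:30183921-30184143, plus strand, outside annotated genes): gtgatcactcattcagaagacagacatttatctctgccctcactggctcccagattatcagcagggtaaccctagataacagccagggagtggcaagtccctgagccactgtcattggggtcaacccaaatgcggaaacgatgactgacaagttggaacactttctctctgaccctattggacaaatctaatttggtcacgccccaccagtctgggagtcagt

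The comparison of lactate with media asks how lactate during activation altered these genes. With lactate, 25 of the 43 members were higher, 1 was lower and 17 did not pass the test at an adjusted p of at most 0.01. Over all 13767 genes tested, 13.9% were called higher and 11.1% lower. Those called higher were 8 of 11 genes of complex III, 6 of 15 of complex IV and 11 of 17 of ATP synthase. The 25 increases were moderate, from 0.31 to 1.14 on the log2 scale, and only Uqcrq was above 1. The median log2 fold change of the 43 members was 0.36, with 0.62 in complex III, 0.30 in complex IV and 0.39 in ATP synthase, whereas that of all tested genes was -0.0016. In 27 members every lactate library was above every media library and in 1 member every one was below, beside 23.2% and 21.5% of all tested genes. Of the 30 members that share under 10% of their 50-base words with another gene, 18 were higher and 1 was lower. Reads of another gene on the opposite strand could enter the counts of Uqcrc2, Cox5a, Cox6a2, Atp5j and Atp5o, whose exons overlap such a gene over 10.3% to 35.6% of their length, since the strand setting of the counting was not given in the sources used here. In bulk RNA, a change in the number of cells of a type and in the RNA per cell cannot be told apart.

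The 25 increases were seen in all 3 donors shared by the groups and within both runs of library numbers in the labels, a low run (3 media and 2 lactate libraries) and a high run (1 media and 2 lactate libraries). These 25 were picked from the same libraries, so that outcome was largely set in advance. Of all 43 members, 32, 39 and 34 were higher with lactate in the 3 donor pairs, and 31 in every pair. In the low run 37 of the 43 were higher and in the high run 34. The median difference in log2 CPM of these 25 genes was 0.59 among the low numbers and 0.48 among the high ones. It was 0.43, 0.54 and 0.46 in the 3 donor pairs. When the donor was a block in the model of all 12 libraries, 6 members were called higher (Uqcrfs1, Uqcrq, Cox6a1, Atp5a1, Atp5g3 and Atp5k), and Cox6a2 was at an adjusted p of 0.014. The other 19 then had adjusted p-values between 0.011 and 0.097. In this fit the count over all genes fell as well, to 625 higher and 367 lower from 1917 and 1534. When the donor block was fitted to the 8 activated libraries alone, 17 members were higher and 1 lower, while the count over all genes, 2030 higher and 1739 lower, was above that of the fit without a block. The 8 members that lost their call there were of complex IV (Cox4i1, Cox5b, Cox6b1 and Cox7b) or ATP synthase (Atp5b, Atp5d, Atp5o and Atp5j2). Their adjusted p-values were 0.0105 to 0.0347. Without lactate 3, 16 members and 1340 of all genes were called higher.

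**Figure D1:**
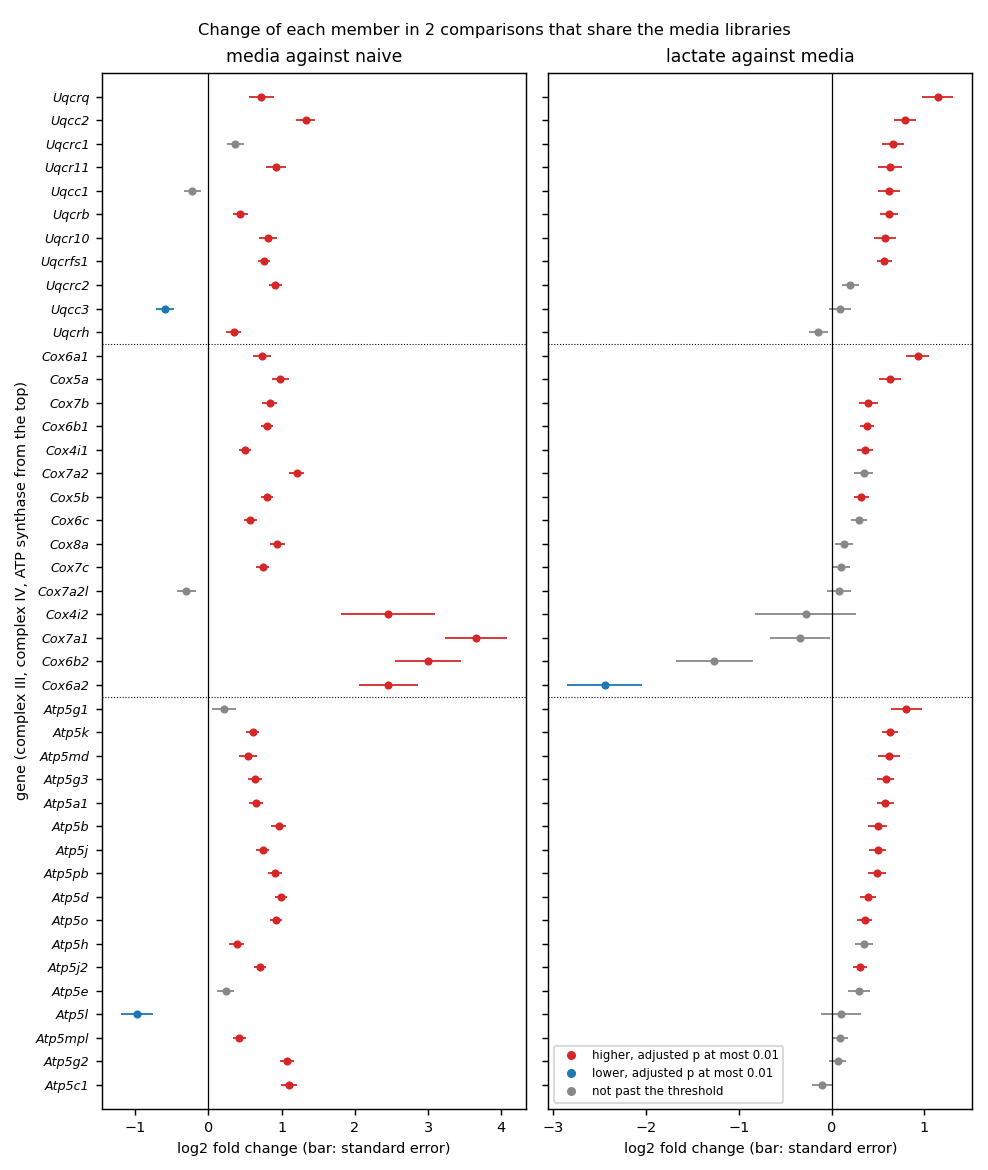
Log2 fold change of each of the 43 members (points) with its standard error (bars) for media against naïve on the left and lactate against media on the right, with genes grouped by complex and red and blue for genes higher and lower at an adjusted p of at most 0.01. On the right, 25 points are red and 1, Cox6a2, is blue at -2.44.

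In complex III, Uqcrq had the largest increase of all members with lactate. It encodes a small subunit of the complex that lies against cytochrome b (chr11:53427922-53430831, minus strand, GRCm38, protein-coding). Its level was 85.2, 43.1, 74.7 and 66.3 CPM in media and 149, 147, 150.4 and 149 CPM in lactate. The lactate libraries lay close together, and media 2 was the lowest of the activated libraries. The log2 fold change was 1.14 ± 0.17 (SE, adjusted p = 0.0003). In naïve cells Uqcrq was at 40.1, 41.9, 46.0 and 35.1 CPM, and the increase from naïve to media was 0.72 ± 0.17 on the log2 scale (adjusted p = 0.0019), although media 2 lay within the naïve range.

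Uqcrfs1 encodes the Rieske iron-sulfur protein, which carries electrons within complex III. It measured 89.9, 94.99, 92.4 and 98.3 CPM in naïve, 161, 137, 163 and 174 CPM in media and 237, 226, 243 and 236 CPM in lactate. The 3 groups formed separate steps. The difference of lactate from media was 0.57 ± 0.08 (adjusted p = 0.00029) and that of media from naïve was 0.76 ± 0.08 (adjusted p = 5e-06). Uqcrb, another small subunit bound to cytochrome b, was at 24.6, 23.4, 21.8 and 22.8 CPM in naïve, 35.4, 27.8, 31.0 and 31.2 CPM in media and 46.8, 52.8, 48.7 and 44.1 CPM in lactate. It was higher with lactate by 0.62 ± 0.10 (adjusted p = 0.00053). Pseudogenes share 43.2% of the 50-base words of Uqcrb, so its unique reads stand for only part of the gene.

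The cytochrome b assembly factors did not move together. Uqcc2, which helps to translate and stabilise cytochrome b, was at 14.7, 14.9, 16.9 and 12.4 CPM in naïve, 40.7, 30.2, 41.9 and 34.8 CPM in media and 60.7, 64.1, 65.3 and 65.2 CPM in lactate. It was higher at both steps, by 1.33 ± 0.12 from naïve to media (adjusted p = 1.3e-06) and by 0.79 ± 0.12 from media to lactate (adjusted p = 0.00039). Its partner Uqcc1 was at 25.0 ± 3.88 CPM in media and 38.4 ± 2.46 CPM in lactate (SD, n = 4), a log2 difference of 0.62 ± 0.12 (adjusted p = 0.0014). From naïve to media its log2 fold change was -0.22 ± 0.12 (adjusted p = 0.11). Uqcc3, which acts at a later step of cytochrome b assembly, had the opposite course on activation. Its levels were 25.5, 24.2, 26.0 and 27.8 CPM in naïve, 16.4, 16.6, 15.6 and 20.1 CPM in media and 15.5, 19.4, 18.2 and 20.0 CPM in lactate. All media libraries were below all naïve ones (-0.59 ± 0.12, adjusted p = 0.00078), and lactate and media overlapped (0.09 ± 0.12, adjusted p = 0.59).

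Of the other subunits of complex III, the core protein Uqcrc1 was at 176 ± 24.0 CPM in media and 279 ± 12.0 CPM in lactate, and Uqcr10 and Uqcr11 were also higher with lactate, by 0.57 ± 0.12 and 0.63 ± 0.13. The second core protein, Uqcrc2, and the hinge protein Uqcrh, which binds cytochrome c1, did not pass the test. Uqcrc2 was at 241 ± 18.4 CPM in media and 278 ± 24.0 CPM in lactate (log2 fold change 0.20 ± 0.09, adjusted p = 0.091). Uqcrh was at 172 ± 18.3 and 156 ± 17.0 CPM (-0.14 ± 0.10, adjusted p = 0.28). The 2 core proteins thus had their larger step in different comparisons, since Uqcrc2 was higher in media than in naïve by 0.91 ± 0.09 and Uqcrc1 by 0.37 ± 0.12, which did not pass the test (adjusted p = 0.012). Outside the rule, cytochrome c1 (Cyc1) and cytochrome c (Cycs) were both higher with lactate, at 212 ± 26.7 against 108 ± 18.4 CPM and at 38.2 ± 4.47 against 18.3 ± 3.35 CPM. Their log2 fold changes were 0.98 ± 0.13 (adjusted p = 0.00019) and 1.06 ± 0.15 (adjusted p = 0.00021). Of the 3 further complex III assembly factors tested (Bcs1l, Ttc19 and Lyrm7), no call was made for lactate against media, with log2 fold changes of 0.21, 0.46 and -0.05 and adjusted p-values of 0.21, 0.145 and 0.893.

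**Figure D2:**
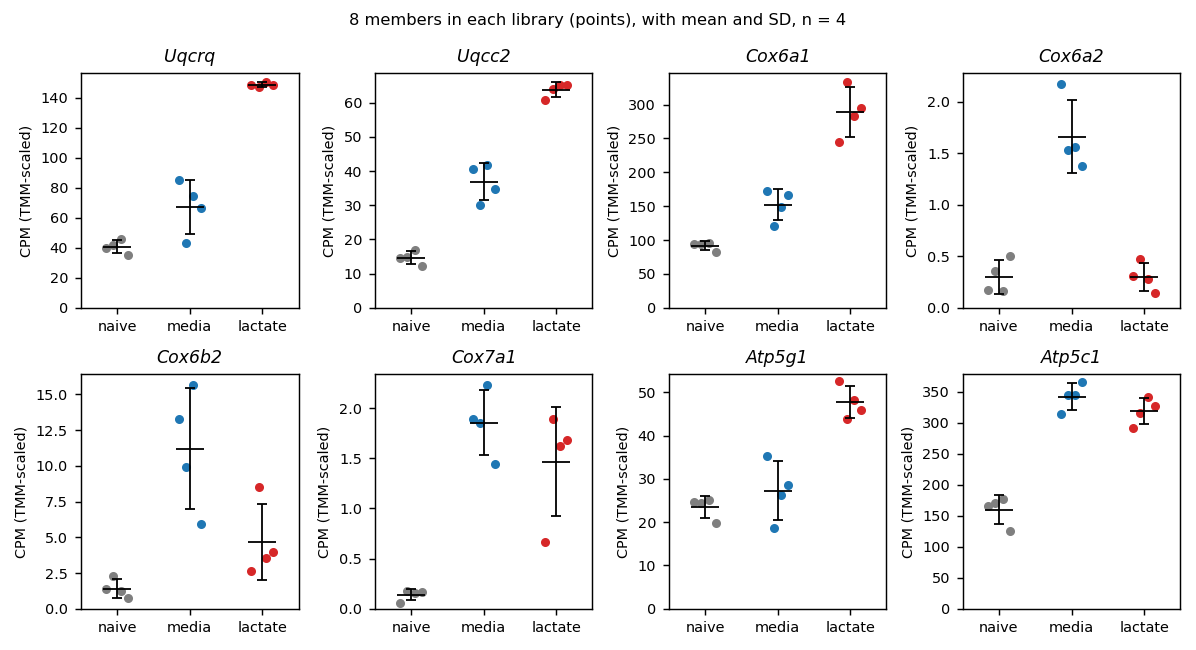
CPM (TMM-scaled, linear axes from 0) of 8 members in each of the 12 libraries (points) with the mean and SD of each group (n = 4). Uqcrq, Uqcc2, Cox6a1 and Atp5g1 have all lactate points above all media points, Cox6a2 has all of them below, and the media and lactate points of Cox6b2, Cox7a1 and Atp5c1 overlap.

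In complex IV, Cox6a1 had the largest increase with lactate. It encodes the ubiquitous isoform of subunit 6A, a small subunit at the surface of the enzyme (chr5:115345642-115348981, minus strand, GRCm38, protein-coding). Its level was 93.9, 94.3, 96.3 and 82.7 CPM in naïve, 172, 121, 149 and 166 CPM in media and 244, 334, 283 and 295 CPM in lactate. No groups overlapped. Lactate exceeded media by 0.93 ± 0.12 (adjusted p = 0.00018) and media exceeded naïve by 0.73 ± 0.12 (adjusted p = 0.0002). The alternative isoform of the same subunit, Cox6a2, which is known from heart and skeletal muscle, was the only member called lower with lactate (chr7:128205435-128206387, minus strand). It was read at 3, 6, 3 and 9 counts in naïve, 47, 28, 28 and 22 in media and 6, 9, 4 and 3 in lactate. In CPM these are 0.169, 0.360, 0.162 and 0.504, then 2.17, 1.53, 1.56 and 1.38, then 0.307, 0.472, 0.283 and 0.145. The media libraries stood above both other groups. Only through them did Cox6a2 pass the filter of at least 1 CPM in 3 libraries. Its high level in media is thus part of why it was tested, and its differences from media carry that selection. The log2 fold change was 2.46 ± 0.40 from naïve to media (adjusted p = 0.00015) and -2.44 ± 0.40 from media to lactate (adjusted p = 0.00061). The ratio of the pooled counts, lactate to media, was 0.177, with a 95% counting interval from 0.107 to 0.280, and lactate and naïve did not differ detectably (ratio 1.01, interval 0.529 to 1.93). These intervals cover counting error only.

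The remaining tissue isoforms of complex IV were also scarce in naïve cells and higher after activation in media, but none was higher with lactate. Cox6b2, known from testis, was at 1.35, 2.28, 1.24 and 0.728 CPM in naïve, 13.3, 9.93, 15.7 and 5.96 CPM in media and 2.61, 8.54, 3.54 and 3.95 CPM in lactate. Its increase on activation was 3.00 ± 0.45 (adjusted p = 7.4e-05), and 3 of 4 lactate libraries lay below all media libraries (-1.26 ± 0.41, adjusted p = 0.028, not past the threshold). Without lactate 2, the highest lactate library, Cox6b2 passed the threshold, and it also did so with DESeq2. Cox7a1, the heart and muscle isoform of subunit 7A, was read at 1, 3, 3 and 3 counts in naïve, 41, 34, 40 and 23 in media and 13, 36, 23 and 35 in lactate. Its pooled counts in media were 13.2 times those in naïve (95% counting interval 6.98 to 28.2), and the fitted change was 3.65 ± 0.42 (adjusted p = 7.6e-06), the largest of any member on activation. Lactate and media overlapped (-0.34 ± 0.32, adjusted p = 0.43).

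Cox4i2, the second isoform of subunit 4, known from lung and from responses to low oxygen, was at 0.564, 0.180, 0.162 and 0.112 CPM in naïve, 1.34, 1.09, 1.505 and 1.76 CPM in media and 0.205, 2.201, 1.49 and 0.819 CPM in lactate. It was higher in media than in naïve by 2.45 ± 0.64 (adjusted p = 0.0044). The lactate libraries lay both below and above the media libraries (-0.28 ± 0.55, adjusted p = 0.72), and without lactate 1 the difference changed sign, to 0.079. Its ubiquitous counterpart Cox4i1 was at 205, 208, 210.4 and 196 CPM in naïve, 292, 269, 271 and 324 CPM in media and 338, 399.9, 368 and 377 CPM in lactate. It was higher with lactate by 0.36 ± 0.09 (adjusted p = 0.0053), a call that was lost in 14 of 26 alternative fits, where the adjusted p reached 0.051.

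Expressed per gene length, the tissue isoforms stayed a small part of their subunit. Cox6a2 made up 0.344% ± 0.213 of the summed TPM of the 6A genes in naïve, 1.12% ± 0.208 in media and 0.107% ± 0.0417 in lactate (SD, n = 4), and neither naïve nor lactate overlapped media. Cox6b2 made up 1.40% ± 0.624 of the 6B genes in naïve, 6.14% ± 2.30 in media and 2.02% ± 1.08 in lactate, where the highest lactate library (3.61%) exceeded the lowest media library (3.23%). With the length of the principal transcript in place of all exons, Cox6b2 made up 2.29% ± 1.01, 9.72% ± 3.52 and 3.28% ± 1.73, so its level depends on the length chosen. The share of Cox7a1 among Cox7a1 and Cox7a2 was 0.586% ± 0.238, 3.30% ± 0.765 and 2.00% ± 0.669. That of Cox4i2 among the subunit 4 genes was 0.243% ± 0.199, 0.956% ± 0.137 and 0.601% ± 0.416. For all 4 isoforms the media libraries lay above all naïve libraries, and for Cox6a2 alone they also lay above all lactate libraries. Cox6a2 passed the filter on low counts only through its media libraries, so its separation carries that selection.

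**Figure D3:**
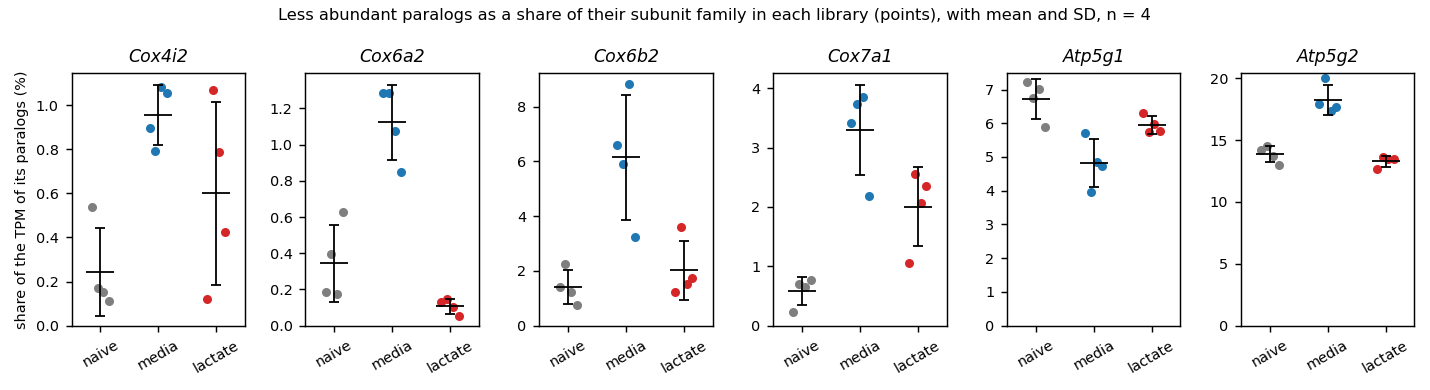
Share of the summed TPM of its subunit family taken by 6 less abundant paralogs (linear axes from 0, percent) in each library (points), with mean and SD (n = 4). The media libraries are above the naïve ones for 5 of the genes and below them for Atp5g1, and in Cox6a2 and Atp5g2 they are above all lactate libraries too.

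Among the ubiquitous subunits of complex IV, Cox5a, which sits on the matrix side of the enzyme, was at 82.3, 88.4, 71.0 and 66.3 CPM in naïve, 167, 128, 160.4 and 153 CPM in media and 227, 264, 229.8 and 222 CPM in lactate. The difference of lactate from media was 0.63 ± 0.11 (adjusted p = 0.0011) and that of media from naïve was 0.98 ± 0.12 (adjusted p = 8.7e-06). Cox6b1, the ubiquitous isoform of subunit 6B, was at 61.1, 63.8, 64.1 and 62.5 CPM in naïve, 120.1, 101, 104 and 114 CPM in media and 136, 146, 147 and 144 CPM in lactate, up by 0.38 ± 0.08 (adjusted p = 0.002). Cox5b and Cox7b were higher by 0.32 ± 0.08 and 0.40 ± 0.10, but each call held in only 9 of 26 alternative fits. Cox6c, Cox7a2, Cox7c and Cox8a did not pass the test. Other genes, among them pseudogenes, share 53.0% of the 50-base words of Cox7c. The liver-type isoform Cox7a2 was at 42.0, 45.6, 43.8 and 38.4 CPM in naïve, 94.5, 84.4, 98.3 and 114 CPM in media and 111, 127, 136 and 124 CPM in lactate (0.35 ± 0.10, adjusted p = 0.018), with lactate 1 below media 4.

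Cox8a, the subunit with the highest TPM of complex IV in media by summed exon length, showed the step of activation but little after it. It was at 104, 106, 104 and 83.0 CPM in naïve, 204, 166, 194 and 199 CPM in media and 201, 201, 225 and 211 CPM in lactate. The difference from naïve to media was 0.94 ± 0.10 (adjusted p = 4e-06) and that from media to lactate was 0.13 ± 0.10 (adjusted p = 0.31). In TPM, Cox8a was at 1069 ± 98.0 in media and 1066 ± 27.4 in lactate, while Cox6a1 was at 750.2 ± 109.9 and 1298 ± 168. The rank of Cox8a depends on the length chosen. Its exons sum to 619 bases and its principal transcript to 550, against 1550 and 765 for Cox4i1. Cox7a2l, the factor that joins complexes III and IV into supercomplexes, did not follow the subunits. It was at 155, 161, 170.2 and 145 CPM in naïve, 114, 127, 122 and 149 CPM in media and 99.2, 147, 151 and 143 CPM in lactate. Neither step passed the test (-0.30 ± 0.13, adjusted p = 0.06, and 0.08 ± 0.13, adjusted p = 0.67), and a pseudogene shares 19.8% of the 50-base words of Cox7a2l.

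Outside the rule, Ndufa4, which is counted as a further subunit of complex IV, was at 73.5 ± 10.9 CPM in media and 128 ± 4.36 CPM in lactate (0.80 ± 0.11, adjusted p = 0.00023). Of 24 tested factors for complex IV assembly and copper and heme delivery, 9 were higher with lactate and 1 was lower. Of all tested genes, 13.9% were called higher and 11.1% lower. The higher ones included Lrpprc, which with its partner Slirp keeps mitochondrial messenger RNAs stable (0.99 ± 0.12, adjusted p = 0.00011, and 0.46 ± 0.11, adjusted p = 0.0048). Cox10, which makes heme O for the oxidase, was higher by 0.91 ± 0.16 (adjusted p = 0.00098), and Coa3, which acts on newly made subunit 1, by 0.77 ± 0.11 (adjusted p = 0.00032). Cox11, Cox18, Cox19, Coa7 and Fastkd5 were higher as well, from 0.55 for Cox18 to 1.01 for Fastkd5. The one that fell was Cox20, a chaperone of subunit 2, at 24.0 ± 4.84 CPM in media and 13.9 ± 2.76 CPM in lactate (-0.78 ± 0.17, adjusted p = 0.0034). With the donor block over 12 libraries Lrpprc, Coa3 and Cox20 kept their calls, at adjusted p-values of 0.002, 0.0088 and 0.0072, whereas the other 7 of the 9 higher factors lost theirs. Their adjusted p-values were 0.015 for Cox10, 0.033 for Slirp, 0.028 for Cox11, 0.057 for Cox18, 0.019 for Cox19, 0.032 for Coa7 and 0.018 for Fastkd5. The HIG1 factors Higd1a and Higd2a, which bind the oxidase, had log2 fold changes of 0.02 and 0.27 with lactate (adjusted p = 0.968 and 0.0908), whereas Higd1a was higher in media than in naïve by 2.00.

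In ATP synthase, 11 of 17 genes were higher with lactate, with members in the F1 head, the c ring, the peripheral stalk and the membrane part. Atp5a1 encodes the alpha subunit of the F1 head. It was at 538, 543, 545 and 498 CPM in naïve, 874, 711, 854 and 902 CPM in media and 1269.7, 1119.5, 1313 and 1281 CPM in lactate, which are separate steps of 0.65 ± 0.09 (adjusted p = 4.5e-05) and 0.58 ± 0.09 (adjusted p = 0.00052). The catalytic beta subunit Atp5b followed it, at 642 ± 17.8, 1247 ± 158 and 1762 ± 143 CPM, with 0.50 ± 0.10 for lactate against media (adjusted p = 0.0023). The central shaft of the motor, the gamma subunit Atp5c1, did not. It was at 166, 170.4, 177 and 126 CPM in naïve, 314, 344, 344 and 366 CPM in media and 291, 315, 341 and 326 CPM in lactate. Its step on activation was the largest of ATP synthase (1.10 ± 0.11, adjusted p = 2.2e-06), and lactate and media overlapped (-0.10 ± 0.11, adjusted p = 0.48). Of the other subunits of the shaft, Atp5d was higher with lactate by 0.39 ± 0.08 and Atp5e was not called (0.30 ± 0.12, adjusted p = 0.062).

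The c ring, which turns as protons pass, is built from a subunit that 3 genes encode with the same mature protein. Atp5g3 was the most abundant by TPM and was at 118, 126, 127 and 122 CPM in naïve, 210.2, 159.6, 188 and 208 CPM in media and 299, 273, 289.9 and 286 CPM in lactate. It was higher at both steps, by 0.64 ± 0.09 (adjusted p = 5.1e-05) and 0.58 ± 0.09 (adjusted p = 0.00044). Atp5g1 was at 24.6, 24.4, 25.2 and 19.8 CPM in naïve, 35.3, 18.8, 26.4 and 28.5 CPM in media and 52.5, 43.9, 48.3 and 46.0 CPM in lactate. Naïve and media overlapped (0.21 ± 0.16, adjusted p = 0.26), and lactate stood above both (0.81 ± 0.16 against media, adjusted p = 0.0022). Atp5g2 had the reverse pattern, at 16.5, 17.9, 16.8 and 14.96 CPM in naïve, 37.8, 32.3, 32.1 and 36.3 CPM in media and 35.8, 35.6, 37.1 and 36.5 CPM in lactate. It was higher in media than in naïve by 1.07 ± 0.10 (adjusted p = 9.1e-07), and lactate and media overlapped (0.07 ± 0.09, adjusted p = 0.62).

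As a share of the summed TPM of the 3 c-ring genes, Atp5g2 went from 13.9% ± 0.670 in naïve to 18.2% ± 1.23 in media and 13.3% ± 0.456 in lactate, with media above both other groups in every library. Atp5g1 went from 6.72% ± 0.595 to 4.81% ± 0.709 and 5.95% ± 0.259, with media below both. When the length of the principal transcript was used in place of all exons, the share of Atp5g1 was 1.80% ± 0.270 in media and 2.21% ± 0.0979 in lactate, so the level depends on the length chosen. With that length media 1 (2.140%) was above lactate 2 (2.136%), so media and lactate overlapped for Atp5g1. Pseudogenes share 87.4% of the 50-base words of Atp5g2, so that uniquely mapped reads cover only a part of Atp5g2. Other genes, among them a pseudogene and the protein-coding gene Dph5, share 10.6% of those of Atp5g1.

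In the peripheral stalk, which holds the F1 head still, Atp5j (factor F6) was at 60.1, 63.3, 58.4 and 68.7 CPM in naïve, 111, 102, 99.2 and 107 CPM in media and 144, 131, 156 and 161 CPM in lactate. The groups did not overlap, and the steps were 0.74 ± 0.09 (adjusted p = 1.1e-05) and 0.50 ± 0.09 (adjusted p = 0.001). The stalk subunits Atp5pb and Atp5o were also higher with lactate, by 0.49 ± 0.10 and 0.36 ± 0.08, and the call of Atp5o held in 17 of 26 alternative fits. Other genes, among them pseudogenes, share 23.2% of the 50-base words of Atp5pb and 35.5% of those of Atp5o. Atp5h was not called (0.35 ± 0.10, adjusted p = 0.015), and other genes, among them pseudogenes, share 47.9% of its 50-base words. In the membrane part, Atp5k (subunit e), which helps pairs of the enzyme to bend the inner membrane, was at 22.9, 22.2, 23.7 and 22.1 CPM in naïve, 38.5, 30.7, 34.2 and 34.8 CPM in media and 50.5, 53.0, 53.7 and 56.7 CPM in lactate. Its increases were 0.60 ± 0.09 (adjusted p = 7e-05) and 0.63 ± 0.09 (adjusted p = 0.00026). Atp5md (DAPIT) and Atp5j2 (subunit f) were higher with lactate by 0.62 ± 0.12 and 0.31 ± 0.08, the latter a call that held in only 8 of 26 alternative fits, and Atp5mpl was not called (0.09 ± 0.09, adjusted p = 0.44).

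The partner of Atp5k in the membrane, subunit g (Atp5l), was the only gene of ATP synthase called lower on activation. It was at 12.2, 12.4, 13.0 and 18.8 CPM in naïve, 6.98, 7.15, 5.29 and 9.28 CPM in media and 9.43, 8.07, 5.80 and 7.42 CPM in lactate. All media libraries were below all naïve ones (-0.97 ± 0.22, adjusted p = 0.0014), and lactate and media overlapped (0.10 ± 0.22, adjusted p = 0.75). Pseudogenes share 68.5% of the 50-base words of Atp5l, and naïve 4 was the highest library. Of 5 ATP synthase assembly factors outside the rule, 2 were higher with lactate, beside 13.9% of all tested genes. These 2 were Atpaf2 (0.58 ± 0.09, adjusted p = 0.00054), which binds the alpha subunit before it joins the F1 head, and Tmem70 (0.48 ± 0.09, adjusted p = 0.0013), which acts on the c ring. With the donor block over 12 libraries their adjusted p-values were 0.018 and 0.023.

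**Figure D4:**
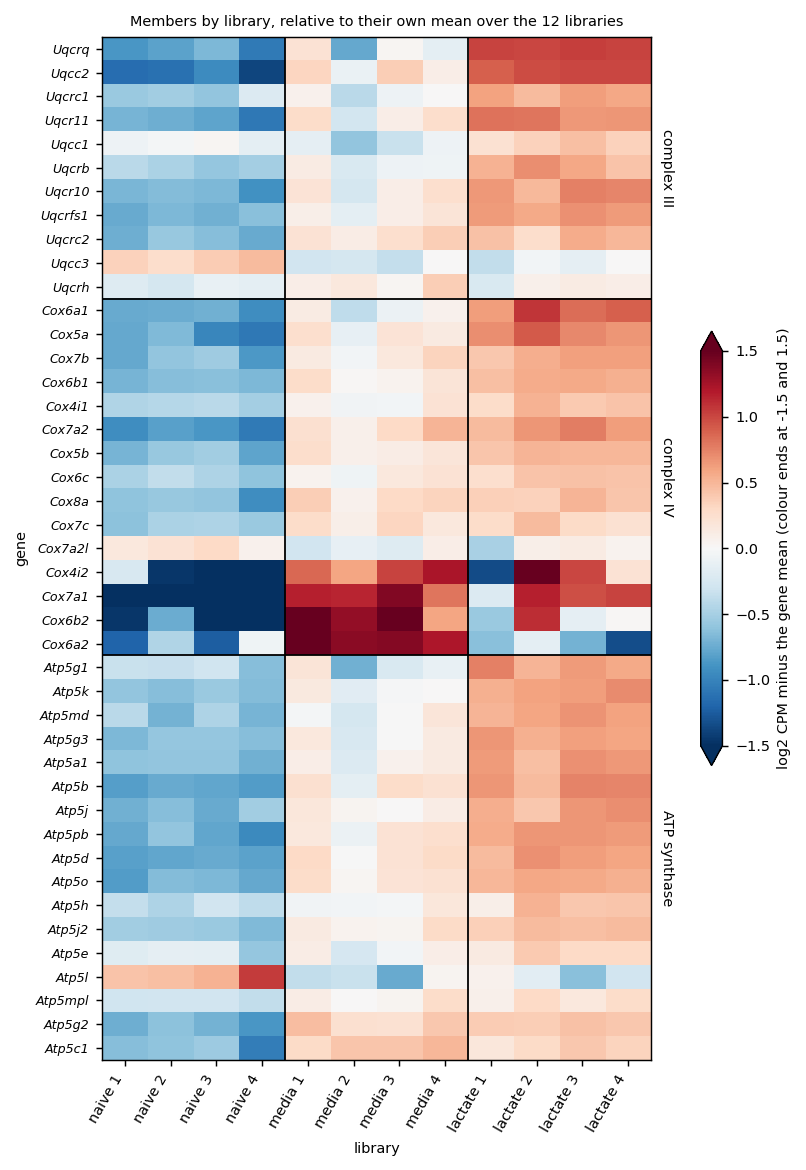
Log2 CPM of the 43 members (rows, by complex) in the 12 libraries (columns), each gene relative to its own mean over all libraries. Most rows go from blue in naïve to pale in media and red in lactate, Uqcc3 and Atp5l are highest in naïve, and the tissue isoforms Cox6a2 and Cox6b2 are highest in media.

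The comparison of media with naïve takes in activation, 72 h of culture with IL-2 and the loss of RNA of other cell types given below. These cannot be told apart here. In media 36 of the 43 members were higher than in naïve cells, 2 were lower and 5 did not pass the test, beside 28.5% and 29.0% of all tested genes called higher and lower. The median log2 fold change of the members was 0.74 and that of all tested genes was -0.029. All 14 subunits of complex IV were higher, with 8 of 11 genes of complex III and 14 of 17 of ATP synthase. The lower genes were Uqcc3 and Atp5l, and those not called were Uqcrc1, Uqcc1, Cox7a2l, Atp5e and Atp5g1. In lactate, 38 members were higher than in naïve cells, 2 were lower and 3 were not called (Uqcrh, Cox6a2 and Cox7a2l), beside 33.0% and 32.0% of all genes, with a median of 1.16. The 3 comparisons share libraries and are not independent of each other, so the values of each member stand side by side above.

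**Figure D5:**
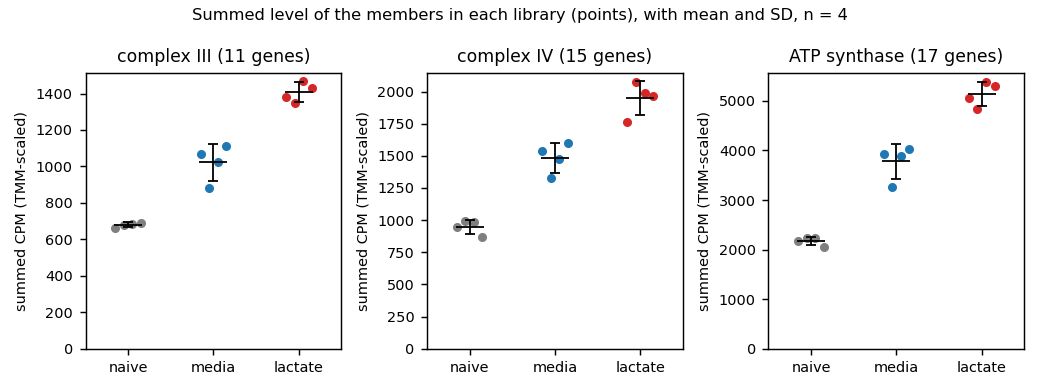
Summed CPM (TMM-scaled, linear axes from 0) of the members of each complex in each library (points), with mean and SD (n = 4). Naïve, media and lactate form separate steps in all 3 panels, and media 2 is the lowest of the activated libraries in each.

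Summed over its genes, complex III was at 681 ± 12.2 CPM in naïve, 1022 ± 99.6 in media and 1409 ± 53.6 in lactate (SD, n = 4). Complex IV was at 947 ± 57.6, 1486 ± 117 and 1949.8 ± 132 CPM, and ATP synthase at 2175 ± 85.7, 3778 ± 348 and 5148 ± 243 CPM. All members together took 3803 ± 140.3 CPM in naïve, 6286 ± 560.1 in media and 8507 ± 312 in lactate. The groups did not overlap in any of these sums. The proportions between the complexes moved less. These sums and proportions are of CPM, not divided by gene length, so long and abundant genes weigh most in them. In media, Atp5b was at 1012 to 1350 CPM and Atp5a1 at 711 to 902 CPM, a large part of the ATP synthase sum. ATP synthase made up 57.2% ± 0.231 of the sum in naïve, 60.1% ± 0.568 in media and 60.5% ± 1.35 in lactate, and complex IV 24.9% ± 0.625, 23.7% ± 0.498 and 22.9% ± 1.54, with media and lactate overlapping in both.

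The naïve libraries also held RNA of other cell types. The CD8+ T cell markers Cd3e, Cd3d, Cd8a, Cd8b1 and Trac summed to between 1776 and 3566 CPM in naïve, 2608 and 3230 in media and 2032 and 2517 in lactate. Markers of B cells (7 genes) summed to between 2163 and 4957 CPM in naïve and between 428 and 696 in media, those of myeloid cells (7 genes) to between 519 and 1678 and between 12.2 and 19.1, and those of red cells (5 genes) to between 85.1 and 3495 and between 0 and 0.231. All 19 of these genes were lower in media than in naïve, and the red cell marker Alas2 was at 0 in all media libraries. Their part in the differences from naïve cells was not tested. Between the activated groups, 2 of the 5 CD8+ T cell markers were lower with lactate, Cd3e (log2 fold change -0.91) and Cd3d (-0.74), while Trac was at -0.40, Cd8a at -0.15 and Cd8b1 at 0.29 without passing the test. The B cell markers summed to between 248 and 330 CPM in lactate, with Ighm and Pax5 among 3 of 7 called lower. Of all tested genes, 11.1% were called lower with lactate. The myeloid markers summed to between 6.61 and 11.2 CPM in lactate. The smallest adjusted p of the 7 was 0.017, for Itgam (log2 fold change -2.34). Most of the myeloid sum was Cd68, at 14.2 ± 2.84 CPM in media and 8.22 ± 2.40 in lactate. The median log2 fold change of the list was 0.49, the value of Lyz2, at 0.0273 CPM in media and 0.0390 in lactate. Lyz2, Csf1r, Cd14, Adgre1 and Fcer1g had log2 fold changes above 0, with means under 1 CPM in both groups. Of the 3 CD4+ T cell markers, Zbtb7b was higher with lactate (0.78, adjusted p = 0.0042), and Cd4 was at 0.348 ± 0.0655 CPM in media and 0.541 ± 0.344 in lactate. With the donor block over 12 libraries the adjusted p-values were 0.011 for Cd3e, 0.038 for Cd3d, 0.067 for Ighm, 0.083 for Pax5 and 0.055 for Zbtb7b. The B cell marker Pax5 was near 0 in both, at 1.19 ± 0.498 CPM in media and 0.257 ± 0.140 in lactate. The part of these markers in the difference between lactate and media was not tested.

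Whether an NRF1-type match went with the response to lactate was read off as a count. Of the 9 members with the match in the window 6 were higher with lactate, and of the 25 without it 15 were. With the ETS-type letters 6 of 11 were higher and without them 15 of 23. All 4 members with the YY1-type letters were higher (Uqcc2, Atp5pb, Atp5j and, with the call that held in 8 of 26 alternative fits, Atp5j2), beside 17 of 30 without. Cox6a1 and Uqcc2, whose upstream stretches are shown above, were among the genes with the lowest adjusted p of their complexes, whereas Atp5g2 and Atp5c1 hold the NRF1-type letters and were not called with lactate.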

How the data were processed

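RNA of 12 libraries (4 per group) was sequenced from TruSeq Stranded mRNA libraries. Per the methods and the submitters' processing notes, the authors used bcl2fastq 2.20.0.422, mapped reads to GRCm38 and removed PCR duplicates with STAR 2.7.5b, and counted uniquely mapped reads in Ensembl exons with featureCounts. The deposited values are raw counts per gene, with no normalization by the authors, and no other per-sample column was used.

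Genes with at least 1 CPM in at least 3 libraries were kept (13767 of 13780). Cox6a2 passed only through the media libraries, and Cox4i2 and Cox7a1 only through activated libraries. One model of the 3 groups was fitted to all libraries with edgeR 4.0.16 (R 4.3.3), using TMM scaling, the quasi-likelihood test and Benjamini-Hochberg adjustment over all genes tested, with a threshold of 0.01. Standard errors were taken from the fold change and its F statistic. The procedure was tested on simulated data. DESeq2 1.42.0, limma 3.58.1, other scalings and filters, terms for run or gene length, and leaving out each library were tried as alternatives. Counting intervals are exact. Deviations of same-donor media and lactate libraries from their group means correlated at 0.374, 0.211 and 0.553. Those of different donors correlated at -0.441 to 0.372, so these values alone do not identify the donor. The donor pairs were therefore taken from the labels. Promoters came from RefSeq (GRCm38.p6), and shared 50-base words and exon overlaps from GENCODE M21.

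The members and the gene lists were chosen with earlier results of these data known. Values in every library are given for the 4 members of each complex with the smallest p for lactate against media, every member called lower with lactate, those with the largest rise and fall from naïve to media, and the paralogs and tissue isoforms. Cox5a, Uqcc3, Atp5c1 and Atp5l entered by these rules. Total counts limit the precision of the tissue isoforms, with as few as 1 count per library. Some marker genes of other cell types are not reported here by name.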

Additional observations from a re-analysis of the deposited data

Results flagged for a closer look

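In 7 of 72 groups of 4 libraries examined (24 named members), 1 library stood apart from the other 3 by Dixon's criterion for the gap over the range, and chance flags about 1 in 20 groups. Naïve 4 accounted for 4 of them. It was the lowest naïve library for Cox8a (83.0 CPM, others 103.7 to 106.2), Atp5a1 (498 CPM, others 538 to 545) and Atp5g1 (19.8 CPM, others 24.4 to 25.2), and the highest for Atp5l (18.8 CPM, others 12.2 to 13.0). Naïve 1 was the highest for Cox4i2 (0.564 CPM, others 0.112 to 0.180) and the lowest for Cox7a1 (0.0564 CPM, others 0.162 to 0.180), both on 10 counts or fewer. Lactate 1 was the lowest lactate library for Cox7a2l (99.2 CPM, others 143 to 150.9).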

How the results depend on the processing

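Over 28 alternative settings, the number of members higher with lactate than in media ranged from 6 to 28, beside 25 as reported, and 6 genes (Uqcrfs1, Uqcrq, Cox6a1, Atp5a1, Atp5g3 and Atp5k) were called in all 26 alternatives that refitted each gene. The lowest count, 6 higher and 0 lower, came from the replicate block by donor, and a test against a 1.2-fold change called 13. Blocking on the number in the sample titles gave 20 higher and 1 lower, and the donor block on the 8 activated libraries, chosen after seeing the data, 17 and 1. Leaving out each library gave 16 (without lactate 3) to 26 higher and 1 to 2 lower (2 without lactate 2). The number lower was 2 with DESeq2 and at an adjusted p of 0.05, and 0 with at least 10 counts required in every library, a filter that removes Cox6a2. The median of lactate against media was 0.284 with a gene length correction, and 0.328 to 0.415 without each library. For lactate against naïve, the median was 1.07 with DESeq2 and with its size factors, 1.10 with the count minimum, 1.11 with only these 2 groups and 1.07 to 1.19 without each library. The number lower was 0 with the length correction, which moved the median of all genes from 0.01 to 0.18, and 1 in the 1.2-fold test. Small differences changed sign for Cox4i2 (0.079 without lactate 1, the highest of -0.80 to 0.079 over the left-out libraries), Cox7a2l and Atp5g2 (-0.0022 and -0.013 with the length correction) and Atp5l (-0.020 without media 3, the lowest of -0.020 to 0.25, and -0.011 without lactate 1). The cause of these shifts was not tested unless stated. Members at a few counts, such as Cox6a2 and Cox7a1, are limited by depth.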
